A study of Mus musculus with 12 samples.

Results

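The genes described here encode the proteasome and its partners. They are all gene symbols of the tables that begin with Psm, carry a letter from a to g and then a digit, and reached 10 or more counts in at least 3 of the 12 libraries after transcript rows were summed per symbol. Of 50 symbols that match the name, 47 passed, out of 23183 symbols in all. The core particle gives 17 of them (Psma and Psmb), the regulatory side 25 (Psmc, Psmd and Psme), and 5 belong to neither side (the inhibitor Psmf1 and the assembly chaperones Psmg1 to Psmg4). Psmb9 lay just inside the threshold with 8 to 18 counts per library, and Psma8, Psmb11 and Psme2b lay outside it with at most 7, 6 and 8 counts. Psma8 is the testis form of an alpha subunit, Psmb11 is the thymus form of a beta subunit, and Psme2b is a near-identical copy of Psme2. Psmc3ip matches the name rule but encodes a meiotic recombination factor and no part of the proteasome.

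The 12 libraries came from ventral hippocampus RNA of male wild-type C57BL/6J mice, 1 library each. The mice were described as 8 weeks old before any treatment and formed 4 groups of 3. C mice had no treatment. SS mice were restrained for 2 hours a day on 14 days and were classed as stress-susceptible. SES and SER mice had the same restraint, were also classed as stress-susceptible, and then had a running wheel, for 14 days by the sample titles and for 4 weeks by the protocol. SES mice were those whose behaviour improved with running, and SER mice were those with little or no improvement. The running groups were therefore separated by behaviour and not by a treatment. Mice are named by group and by the number in their title, as in SS mouse 18.

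The proteasome is the protease that degrades ubiquitin-tagged proteins. Its core particle is a barrel of outer alpha rings, which gate the entry, and inner beta rings, which hold the proteolytic sites. A regulatory particle caps the barrel: its lid removes ubiquitin, its base binds substrates, and its ATPase ring unfolds them and opens the gate. Other caps such as the Psme activators can take its place. In neurons, proteasomes turn over synaptic proteins and take part in synaptic plasticity.

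Libraries held 9323607 to 15707516 counts. The labelled tissue is bulk hippocampus, and each of 6 pyramidal, 5 granule and 6 general neuronal markers was above 0 in each library. The pyramidal markers summed to 339.5 to 460.3 CPM in SS mice (CPM is each count relative to the library size after TMM scaling), below all C mice (491.2 to 606.5 CPM), SES mice (579.1 to 624.8 CPM) and SER mice (578.2 to 677.5 CPM). The granule markers summed to 400.9 to 559.1 CPM in SS, 437 to 508.9 CPM in SES and 425.6 to 450.2 CPM in SER, all above the 354.3 to 395.9 CPM of C. The general neuronal markers summed to 6276 to 6708 CPM in C and overlapped C in SS (5599 to 6385 CPM), while SES (5299 to 6216 CPM) and SER (5289 to 5953 CPM) lay wholly below C. The summed level of 8 choroid plexus markers ran from 16.3 to 3741 CPM in C mice and from 23.3 to 5417 CPM in SS mice, with C mouse 2 and SS mouse 18 high in their groups. This sum ran from 898.2 to 4969 CPM in SES mice and from 69.9 to 1166 CPM in SER mice. 4 of these 8 genes (Folr1, Kcne2, Otx2 and Slc4a5) were at 0 in at least 1 library. The 7 nuclear-retained RNAs summed to 10430 CPM (SS mouse 19), 12060 CPM (SS mouse 21) and 1282 CPM (SS mouse 18), with 1321 to 1732 CPM in C mice, 2882 to 3999 CPM in SES mice and 2080 to 2887 CPM in SER mice. The 7 oligodendrocyte markers summed to 3476 CPM (SS mouse 19), 3355 CPM (SS mouse 21) and 10660 CPM (SS mouse 18), with 5783 to 9505 CPM in C mice. The part of these lists in the results on proteasome genes was not tested, apart from the covariate and left-out mice given with the results. In bulk tissue, fewer cells of a type and less RNA per cell cannot be told apart.

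Together the 47 genes took 0.43% to 0.446% of all counts in C mice. They took 0.37% to 0.404% in SS mice, 0.386% to 0.406% in SES mice and 0.367% to 0.407% in SER mice. Each of the 9 stressed mice was below each of the 3 unstressed mice in this share.

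Between SS and C, 10 of the 47 genes were lower in SS and 0 were higher at an adjusted p under 0.05 (edgeR's quasi-likelihood test, Benjamini-Hochberg adjustment over 14541 genes). Over all genes tested, 4.63% were called lower and 5.21% higher, while 21.3% of these 47 were called lower. The called genes were the core subunits Psma1, Psma2, Psma3, Psma6, Psmb1 and Psmb7, the ATPase Psmc6, the lid subunits Psmd12 and Psmd14, and the chaperone Psmd10. The decreases ran from 21.2% for Psmb7 to 34.2% for Psmc6. These genes lie on several chromosomes: in RefSeq GRCm38.p6, for example, Psmc6 is at chr14:45329823-45349074, Psma1 at chr7:114264550-114276116, Psma6 at chr12:55384222-55418459, Psmb1 at chr17:15475721-15498276, Psmb7 at chr2:38588046-38643952 and Psmd10 at chrX:140948425-140956711. The fitted log2 fold change was negative for 41 of the 47 genes, with a median of -0.21 against 0.02 over all genes tested.

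**Figure D1:**
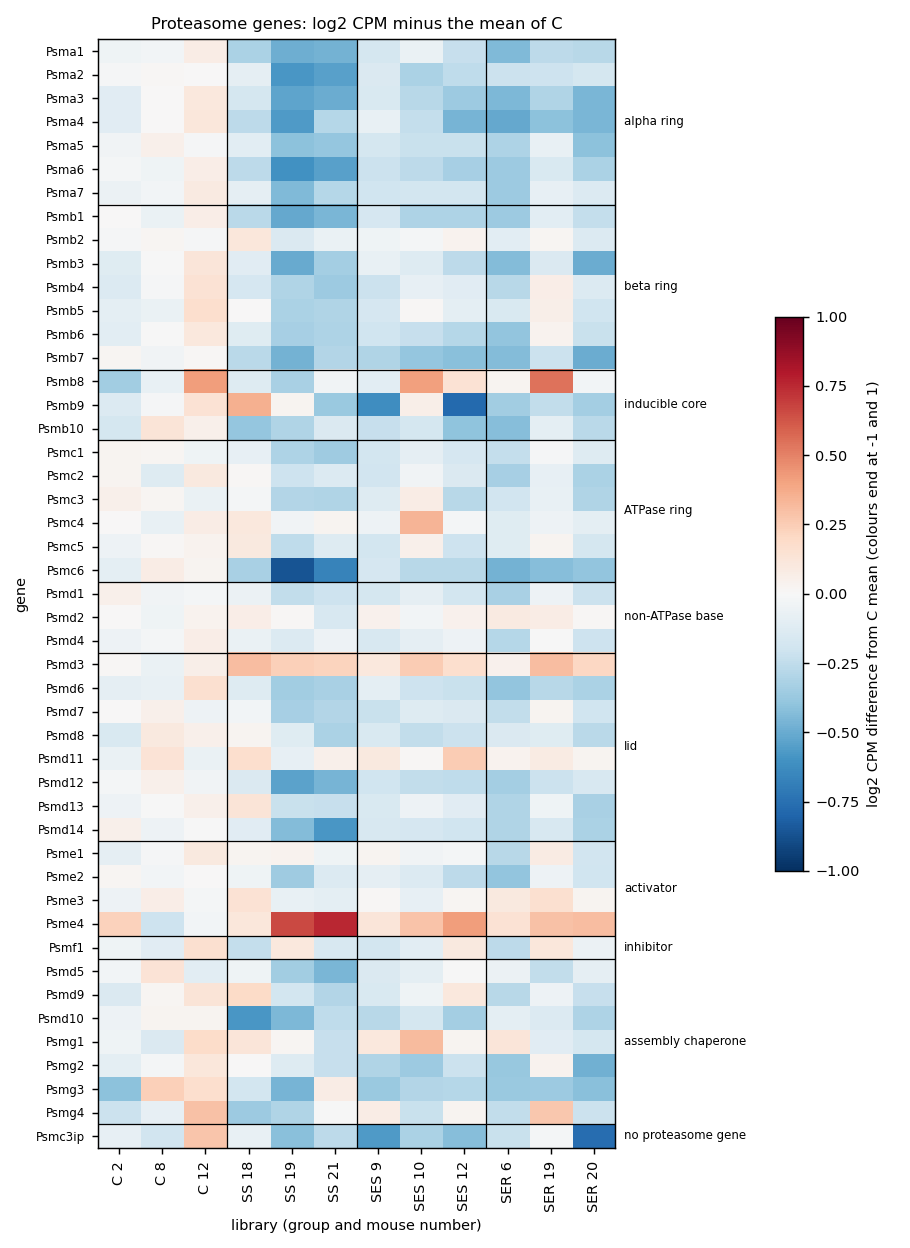
Level of the 47 genes (rows, by role) in the 12 libraries (columns, by group and mouse number), as log2 CPM minus the mean of the C mice; blue is lower and red is higher, and colours end at -1 and 1. The alpha ring rows are blue across the stressed mice and, on average, darkest in SS mice 19 and 21 (-0.52 and -0.43). Single rows differ: Psma4 is darker in each SER mouse than in SS mouse 21. Psmd3 and Psme4 are red in the columns of SS mice 19 and 21.

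The alpha ring, which gates the entry, was lower throughout. All 7 alpha subunits were lower in each SS mouse than in each C mouse, and 4 of them were called. Over all genes, 14.2% had SS wholly below C. Values are listed by mouse in the order 2, 8 and 12 for C, 18, 19 and 21 for SS, 9, 10 and 12 for SES and 6, 19 and 20 for SER. Psma1 stood at 102, 103 and 111 CPM in C, while the SS mice had 84.8, 75.0 and 76.2 CPM. It fell by 0.42 ± 0.09 on the log2 scale (SE, adjusted p = 0.0231 by edgeR).

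Psma6 stood at 125, 124 and 133 CPM in C and at 106, 83.8 and 87.4 CPM in SS. It fell by 0.46 ± 0.10 (adjusted p = 0.0243 by edgeR), and SS mouse 18 was the nearest to C. Psma3 fell by 0.39 ± 0.11 (adjusted p = 0.0379), from 134 ± 10.2 CPM in C to 102 ± 14.3 CPM in SS (SD, n = 3, edgeR). Psma2 was nearly constant in C at 131, 133 and 132 CPM, and stood at 124, 87.9 and 90.4 CPM in SS.

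The Psma2 values in SS thus held 1 mouse near C and 2 mice far below, and the fall of 0.39 ± 0.11 had an adjusted p of 0.0489 by edgeR. The other alpha subunits missed the threshold: Psma4 differed by -0.37 ± 0.11 (adjusted p = 0.0581), Psma5 by -0.30 ± 0.11 (adjusted p = 0.0841) and Psma7 by -0.27 ± 0.10 (adjusted p = 0.105, all by edgeR).

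The beta ring was less even. Psmb7, which carries the trypsin-like site, stood at 183, 177 and 182 CPM in C and at 150, 130 and 147 CPM in SS, with no overlap. It fell by 0.34 ± 0.09 (adjusted p = 0.0357 by edgeR). Psmb1, a structural subunit, stood at 174, 166 and 181 CPM in C and at 144, 121 and 127 CPM in SS. It fell by 0.41 ± 0.09 (adjusted p = 0.0259 by edgeR), also without overlap.

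The other proteolytic subunits were not called. Psmb5, with the chymotrypsin-like site, differed by -0.20 ± 0.11 (adjusted p = 0.261 by edgeR), and its groups overlapped because SS mouse 18 at 132 CPM lay above C mice 2 and 8. Psmb6, with the caspase-like site, differed by -0.25 ± 0.11 (adjusted p = 0.145 by edgeR), with SS wholly below C. Psmb2 was nearly the same, at 58.3 ± 0.60 CPM in C and 57.1 ± 5.31 CPM in SS (SD, n = 3), a difference of -0.03 ± 0.09. Psmb3 and Psmb4 had differences of -0.31 ± 0.12 and -0.28 ± 0.10 and were not called.

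Interferon can replace the proteolytic subunits with Psmb8, Psmb9 and Psmb10, which form the immunoproteasome. None of the 3 was called in SS against C: Psmb8 differed by -0.21 ± 0.29, Psmb9 by 0.02 ± 0.37 and Psmb10 by -0.28 ± 0.12 (adjusted p = 0.158 by edgeR). At 8 to 18 counts per library for Psmb9, a change of the size seen in the alpha ring was not detectable. Per kilobase of transcript, Psmb10 made up 12.4% to 15.9% of the sum of Psmb10 and Psmb7 over the 12 libraries. The share of Psmb8 with Psmb5 was 1.23% to 2.10%, and that of Psmb9 with Psmb6 was 0.541% to 1.20%. The mean share of Psmb10 was 13.9% ± 1.47 in C, 14.5% ± 1.37 in SS, 14.7% ± 0.871 in SES and 14.9% ± 0.979 in SER (SD, n = 3), so the groups overlapped. The 6 microglial markers, a cell type known to express these subunits, summed to 392 to 394 CPM in C, 351 to 405 CPM in SS, 341 to 426 CPM in SES and 456.5 to 472 CPM in SER, where each mouse was above each C mouse, and their part in these shares was not tested.

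In the regulatory particle 1 ATPase stood apart. Psmc6 was at 99.5, 112 and 109 CPM in C and at 85.2, 58.6 and 67.2 CPM in SS, and each SS mouse was below each C mouse. It fell by 0.60 ± 0.12 (adjusted p = 0.0223 by edgeR), the largest fitted change among the 47 genes. The other ATPases of the same ring differed by less. Psmc1 differed by -0.24 ± 0.09, Psmc3 by -0.20 ± 0.11, Psmc2 by -0.11 ± 0.10, Psmc5 by -0.09 ± 0.10 and Psmc4 by 0.03 ± 0.10, and none was called. Fitted changes within the ring thus spanned -0.60 to 0.03.

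In the lid 2 genes fell, and 1 differed in the other direction. Psmd14, the deubiquitinase of the lid, stood at 104, 97.2 and 100.3 CPM in C and at 92.8, 74.6 and 67.2 CPM in SS, and fell by 0.36 ± 0.11 (adjusted p = 0.0482 by edgeR). Psmd12, a scaffold subunit, stood at 92.2, 96.6 and 91.3 CPM in C and at 84.4, 64.4 and 67.5 CPM in SS, and fell by 0.37 ± 0.10 (adjusted p = 0.0382 by edgeR). In both genes SS mouse 18 was closest to C and no values overlapped. Psmd3, another lid subunit, stood at 93.2, 88.5 and 96.2 CPM in C and at 115, 109 and 108 CPM in SS. It was the single gene of the 47 with SS wholly above C, against 12.7% over all genes, but its difference of 0.26 ± 0.09 missed the threshold (adjusted p = 0.072 by edgeR). Psmd6 was lower in each SS mouse (-0.27 ± 0.10, adjusted p = 0.0861), while Psmd7, Psmd8, Psmd11 and Psmd13 lay between -0.21 and 0.04 and overlapped C.

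None of the 3 base subunits without ATPase activity was called. Psmd2, which docks ubiquitin-like domains, stood at 230.1 ± 6.6 in C and 226 ± 18.3 in SS (CPM, SD, n = 3). Psmd1 differed by -0.17 ± 0.09, with each SS mouse below C, and Psmd4, a ubiquitin receptor, by -0.08 ± 0.09.

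None of the 4 activators was called. Psme1 and Psme3 differed from C by 0.00 ± 0.11 and -0.01 ± 0.09. Psme2 differed by -0.17 ± 0.12, with each SS mouse below each C mouse, and reads of its copy Psme2b may be divided between both. Psme4, a large activator linked to histone degradation, stood at 44.0, 32.4 and 36.7 CPM in C and at 40.6, 59.3 and 63.0 CPM in SS. SS mice 19 and 21 were above all C mice, and SS mouse 18 was within the C range. The difference of 0.53 ± 0.16 just missed the threshold by edgeR (adjusted p = 0.0511). It passed without SS mouse 18, at 0.69 ± 0.13 (adjusted p = 0.00158 by edgeR), where 13.6% of all genes were called higher. It also passed without C mouse 2, at 0.65 ± 0.17 (adjusted p = 0.0492 by edgeR), where 2.53% of all genes were. Without C mouse 8, C mouse 12, SS mouse 19 or SS mouse 21 it did not pass.

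Of the chaperones that assemble the particle, Psmd10 (gankyrin) was called. It stood at 21.8, 23.0 and 23.0 CPM in C and at 15.1, 16.5 and 18.9 CPM in SS, and fell by 0.42 ± 0.12 (adjusted p = 0.0423 by edgeR). This was the one called gene in which SS mouse 18 was the lowest of its group. Its counts are divided between 2 transcript rows. NM_001164177 held 113, 116 and 131 counts in the C mice and 57, 63 and 68 in the SS mice. NM_016883 held 120, 206 and 137 in the C mice and 92, 147 and 155 in the SS mice, so the groups overlapped in that row. With NM_016883 alone, the row with more counts, the difference was -0.14, with an adjusted p of 0.668 by edgeR.

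Psmd5 differed by -0.28 ± 0.12 (adjusted p = 0.137 by edgeR) and Psmd9 by -0.09 ± 0.14. The core chaperones Psmg1, Psmg2, Psmg3 and Psmg4 differed by -0.03 ± 0.15, -0.12 ± 0.15, -0.21 ± 0.19 and -0.23 ± 0.20, and the inhibitor Psmf1 by -0.09 ± 0.14. Psmc3ip differed by -0.27 ± 0.27. None of these was called. The Psmg genes stood at 6.98 to 17.4 CPM, and their standard errors of 0.15 to 0.20 were above the 0.09 to 0.11 of the alpha ring.

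**Figure D2:**
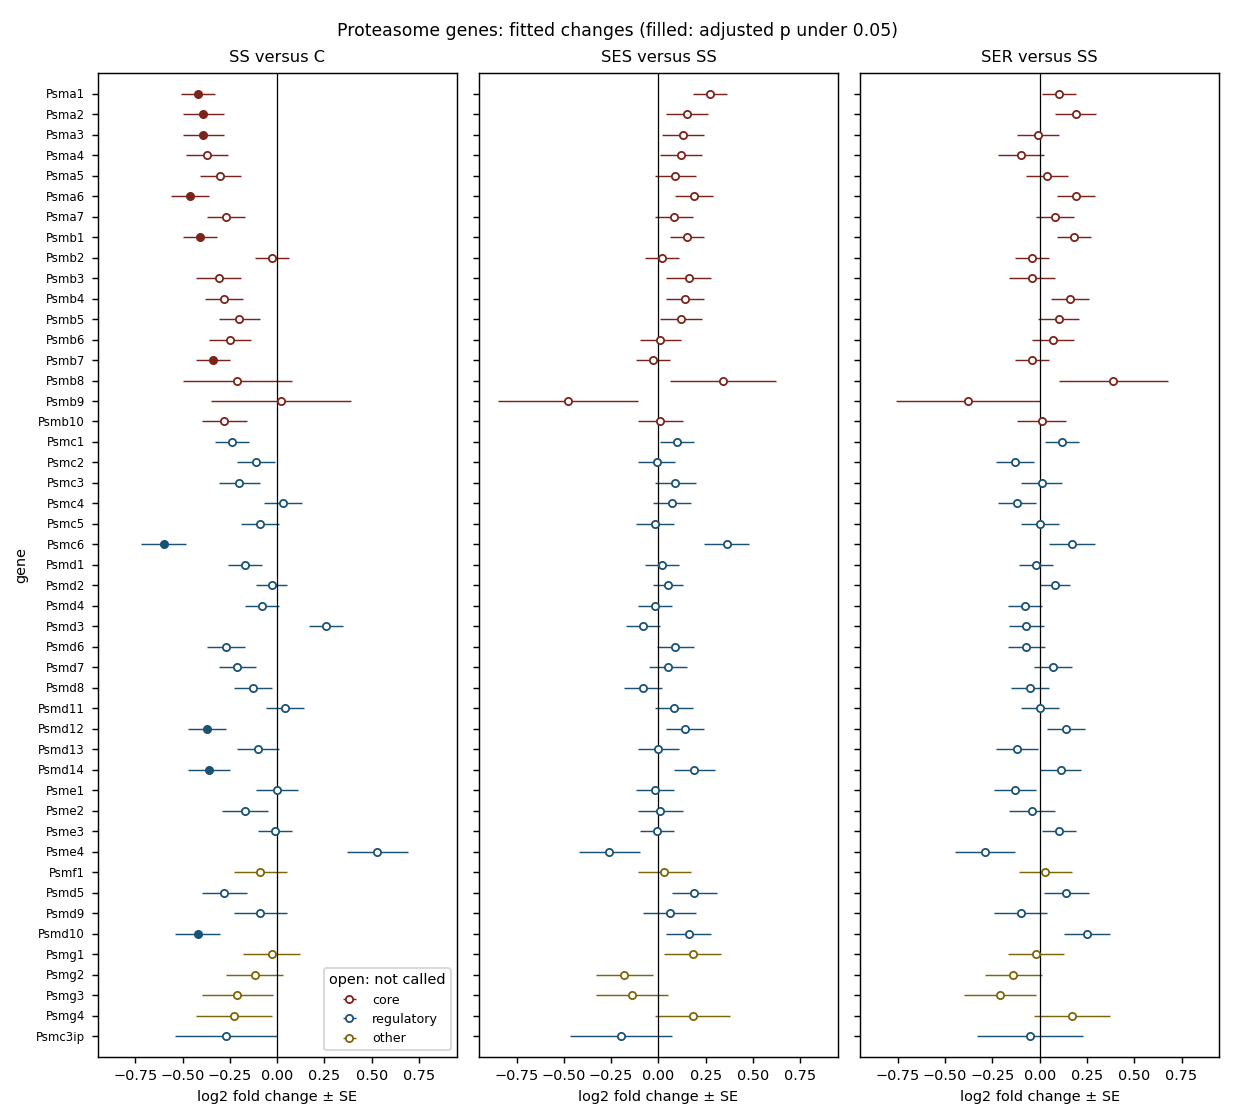
Fitted log2 fold change ± SE of each of the 47 genes (rows) in SS against C, SES against SS and SER against SS; filled points passed an adjusted p under 0.05 and open points did not, and colours give core, regulatory and other genes. The 10 filled points are all in SS against C and all lie left of 0.

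These calls rested on most of the mice, and the counts over all genes moved with them. Without SS mouse 18, edgeR called 23 genes and kept all 10. Of these 23, 22 were lower (46.8%, against 12.2% of all genes tested in that fit) and Psme4 was higher (2.13%, against 13.6%). Without C mouse 2 edgeR called 6, of which 5 were among the 10 (10.6% lower, against 3.22% of all genes). The other was Psme4, which was higher (2.13%, against 2.53% of all genes). Without C mouse 12 edgeR called 0 of the 47 and 78 of all genes. Without C mouse 8, SS mouse 19 or SS mouse 21 it called 0 genes of any kind. The adjusted p of the 10 genes was 0.0601 to 0.207 over these 4 fits. The sign of all 10 stayed negative in each of the 6 fits. Without C mouse 2 and SS mouse 18, the mice with most choroid plexus RNA in their groups, 22 genes were called. Of these, 21 were lower (44.7%, against 11.9% of all genes) and Psme4 was higher (2.13%, against 12.9%). Limma-voom called the same 10 (21.3%, against 4.44% lower over all genes). DESeq2 called 13. The same 10 and Psma4 were lower (23.4%, against 7.32% of all genes), and Psmd3 and Psme4 were higher (4.26%, against 7.94%).

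The core and regulatory sides differed in the size of the change. In SS against C, 6 of 17 core genes (35.3%) and 4 of 25 regulatory genes (16%) were called lower, against 4.63% over all genes. The median log2 fold change was -0.30 for core genes and -0.13 for regulatory genes, a difference of -0.16. No test of this difference was made, since the genes of a complex are not independent samples.

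The same was seen mouse by mouse, on the scale of mean log2 CPM minus the mean of C. Core genes stood at -0.09, -0.01 and 0.10 in C mice 2, 8 and 12 and at -0.13, -0.40 and -0.33 in SS mice 18, 19 and 21. Regulatory genes stood at -0.02, -0.01 and 0.03 in C and at -0.01, -0.21 and -0.19 in SS. Core genes were below regulatory genes by 0.12 to 0.19 in the SS mice, outside the C range of -0.07 to 0.07. Core minus regulatory was -0.07, -0.08 and -0.17 in SES mice 9, 10 and 12. It was -0.14, -0.05 and -0.10 in SER mice 6, 19 and 20. SES mouse 12 and SER mouse 6 thus lay within the SS range. SS mouse 18 lay within the C range for regulatory genes and just below it for core genes.

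The 2 SS mice with the lowest proteasome levels were those with the high nuclear-retained RNA. With that list's level as a covariate, edgeR called 0 of the 47 genes in SS against C and 0 over all genes. At an unadjusted p under 0.05, 7 of the 47 were lower and 1 was higher (14.9% and 2.13%, against 7.61% and 7.08% of all genes). The medians were then -0.19 for core and -0.07 for regulatory genes. Core transcripts are also shorter, with a median length of 1015 bases against 1568 for regulatory genes, at a GC content of 50.8% and 49.8%. With an offset for length and GC content fitted in each library, 0 of the 47 and 0 over all genes were called. At an unadjusted p under 0.05, 6 of the 47 were lower and 1 was higher (12.8% and 2.13%, against 11% and 8.01% of all genes). The medians were then -0.15 and -0.10, a difference of -0.05.

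**Figure D3:**
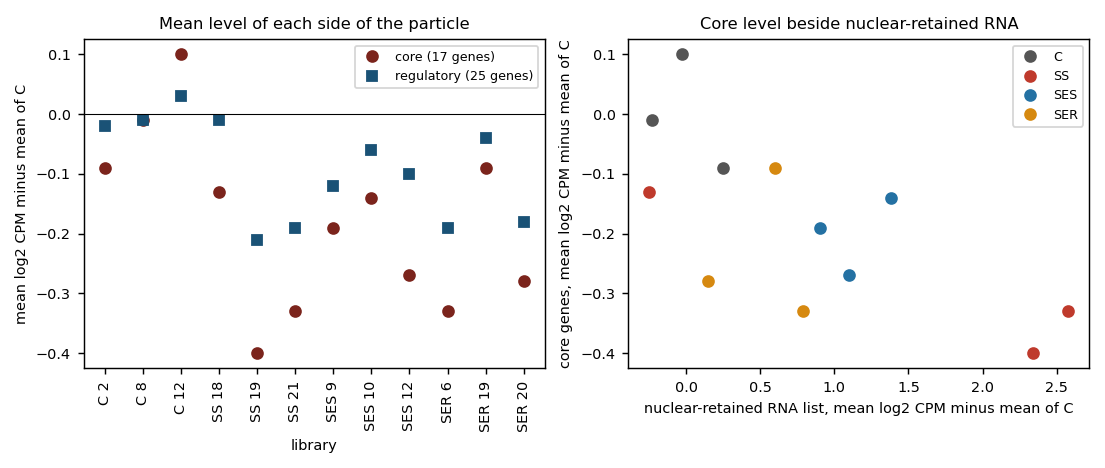
Left, mean log2 CPM minus the mean of C for the 17 core genes (circles) and the 25 regulatory genes (squares) in each of the 12 libraries. Right, the core value of each library against that of the nuclear-retained RNA list, coloured by group; SS mice 19 and 21 lie at the lower right and SS mouse 18 lies beside the C mice.

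The next question was whether running mice differed from sedentary stressed mice. In SES against SS edgeR called 0 of the 47 genes, with 0% called over all genes, and 2 were higher at an unadjusted p under 0.05 (3.93% over all genes). These were Psmc6 (0.36 ± 0.12) and Psma1 (0.27 ± 0.09), both with an adjusted p of 0.524 by edgeR. Psmc6 stood at 95.0, 87.7 and 87.8 CPM in SES, above all SS mice and below all C mice. Psma1 stood at 93.5, 101 and 89.7 CPM in SES, also between both groups. These 2 were the only genes of the 47 with SES wholly above SS. Over all genes tested, 920 of 14541 had SES wholly above SS. Both genes were also called lower in SS against C, and the SS mice enter both comparisons.

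In SER against SS edgeR again called 0 of the 47, with 0.0481% called over all genes, and 0 passed an unadjusted p under 0.05 (18.2% over all genes). Psmc6 stood at 77.0, 79.2 and 80.9 CPM in SER, within the SS range. Psma1 stood at 77.6, 88.1 and 86.8 CPM and overlapped SS. The largest positive difference was that of Psmb8, at 0.39 ± 0.29 (adjusted p = 0.504 by edgeR), on 23 to 56 counts per library.

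Among the genes named by role, Psmb5 differed by 0.12 ± 0.11 in SES against SS and 0.10 ± 0.11 in SER against SS. The values for Psmb6 were 0.01 ± 0.11 and 0.07 ± 0.11, and those for Psmb7 were -0.03 ± 0.09 and -0.04 ± 0.09. Psmd14 differed by 0.19 ± 0.11 and 0.11 ± 0.11, and Psmd10 by 0.16 ± 0.12 and 0.25 ± 0.12. Psme4 differed by -0.26 ± 0.16 and -0.29 ± 0.16. Both comparisons share the SS mice, so these pairs are not independent.

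Leaving out SS mouse 18 also moved the counts in these comparisons, for the 47 genes and over all genes alike. Without it, 5 genes (10.6%) were called in SES against SS, where 1283 of all genes (8.69%) were: Psmc6 (0.52 ± 0.09, adjusted p = 0.00487), Psma2 (0.33 ± 0.08, adjusted p = 0.0274), Psmd14 (0.33 ± 0.09, adjusted p = 0.0382) and Psma1 (0.33 ± 0.09, adjusted p = 0.0427) higher, and Psme4 (-0.43 ± 0.13, adjusted p = 0.0491) lower. In SER against SS without it, Psma2, Psmc6, Psma6 and Psmd12 were called higher, by 0.27 to 0.37, and Psme4 lower, at -0.45 ± 0.13 (adjusted p = 0.0273, all by edgeR). These 5 genes are 10.6% of the 47, below the 16.5% called over all genes in that fit. The 2 SS mice left in these fits are those with the high nuclear-retained RNA. Their choroid plexus markers summed to 23.3 and 28.7 CPM, below each SES mouse (898.2 to 4969 CPM) and each SER mouse (69.9 to 1166 CPM). The part of either RNA list in these calls was not tested.

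SES and SER mice did not differ in a called gene: edgeR called 0 of the 47, with 0.0275% called over all genes, and 0 passed an unadjusted p under 0.05 (3.72% over all genes). DESeq2 and limma-voom called 0 in SES against SS, in SER against SS and in SES against SER. Psma1 (0.17 ± 0.09), Psmc4 (0.19 ± 0.10), Psmc6 (0.19 ± 0.12) and Psmd6 (0.16 ± 0.10) were higher in each SES mouse than in each SER mouse, and Psme3 (-0.11 ± 0.09) was lower. For comparison, 5.4% of all genes had SES wholly above SER and 5.36% wholly below. The largest standard errors belonged to Psmb9 (0.38), Psmb8 (0.28) and Psmc3ip (0.27), and those of the alpha ring were 0.09 to 0.11.

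Against unstressed mice, both running groups leaned the same way as SS. In SES against C, edgeR called 0 of the 47, with 0.179% called over all genes in either direction, and 9 were lower at an unadjusted p under 0.05 (7.91% over all genes). In SER against C it called 0, with 1.19% called over all genes, and 15 were lower and 1 was higher at an unadjusted p under 0.05 (8.84% and 9.72% over all genes). DESeq2 called Psmb7 lower in SES (-0.37 ± 0.10, adjusted p = 0.0111) and 6 genes lower in SER, namely Psma1, Psma3, Psma4, Psmb7, Psmc6 and Psmd6. Those are 2.13% and 12.8% of the 47, against 1.33% and 2.04% called lower by DESeq2 over all genes. Limma-voom called 0 in both.

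Psmb7 had the largest fitted decrease of the rings in SES, at -0.37 ± 0.09 (adjusted p = 0.123 by edgeR), and was similar in SER, at -0.38 ± 0.09 (adjusted p = 0.064). Its values were 146, 138 and 135 CPM in SES and 134, 156 and 128 CPM in SER, all below the lowest C mouse at 177 CPM. Psma4 stood at 75.9, 81.1 and 78.5 CPM in SER against 99.6, 108 and 117 CPM in C, a difference of -0.46 ± 0.12 (adjusted p = 0.068 by edgeR). Psmc6 differed by -0.24 ± 0.12 in SES and -0.43 ± 0.12 in SER. The medians in SES were -0.24 for core and -0.11 for regulatory genes, and in SER they were -0.26 and -0.18. SS, SES and SER share the same C mice in these comparisons.

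In all, 15 of the 47 genes (31.9%) were lower in each of the 9 stressed mice than in each of the 3 C mice, and 0 were higher. Over all genes tested, 5.1% were wholly lower and 3.64% wholly higher. They were 8 of 17 core genes and 7 of 25 regulatory genes. The core genes were Psma1, Psma2, Psma3, Psma5, Psma6, Psma7, Psmb1 and Psmb7. The regulatory genes were Psmc6, Psmd1, Psmd6, Psmd10, Psmd12, Psmd14 and Psme2.

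**Figure D4:**
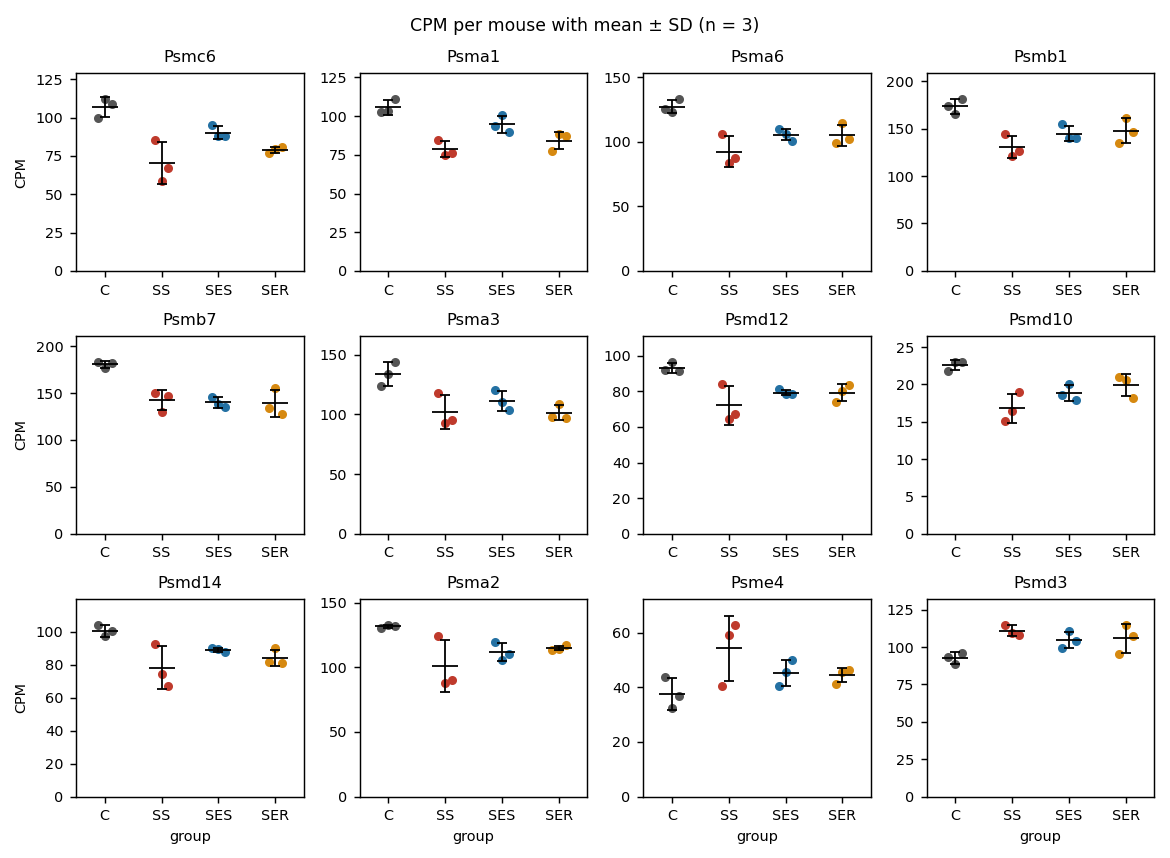
CPM of each mouse (points) with the mean ± SD of 3 mice (bars) for the 10 genes called lower in SS than in C and for Psme4 and Psmd3, by group; the vertical axes start at 0. In the 10 called genes each stressed mouse lies below each C mouse, and SS mice 19 and 21 lie far from SS mouse 18 in Psma2 and Psme4.

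Partners of the proteasome were read from lists of known roles. Over all genes tested, edgeR called 4.63% lower and 5.21% higher in SS against C. Of 5 measured subunits and maturation factors whose names do not begin with Psm, 3 were lower in SS than in C. Uchl5, a deubiquitinase of the base, fell by 0.46 ± 0.10 (adjusted p = 0.0259 by edgeR), Pomp, the maturation factor of the core, by 0.42 ± 0.10 (adjusted p = 0.0268) and Usp14, the other deubiquitinase of the base, by 0.33 ± 0.08 (adjusted p = 0.0299). Usp14 was tight in C, at 189, 185 and 193 CPM, and in SS, at 151, 151 and 148 CPM, and unlike most called proteasome genes it did not set SS mouse 18 apart. Usp14 (-0.39 ± 0.08, adjusted p = 0.0447) and Uchl5 (-0.53 ± 0.10, adjusted p = 0.0368) were also called lower in SER against C by edgeR. In that comparison 0.337% of all genes were called lower. Shfm1, a small lid subunit, differed by -0.41 ± 0.14 in SS (adjusted p = 0.0799) and Adrm1, a ubiquitin receptor, by 0.11 ± 0.10.

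Among 25 ubiquitin-conjugating enzymes, 6 were lower and 1 was higher in SS than in C. The shares called over all genes were 4.63% lower and 5.21% higher. Ube2v2 fell by 0.58 ± 0.11 (adjusted p = 0.0223 by edgeR) and Ube2d2a by 0.38 ± 0.08 (adjusted p = 0.0231), while Ube2o rose by 0.44 ± 0.12 (adjusted p = 0.0399). Ube2o stood at 107, 156 and 153 CPM in SS, with 99.8 to 106 CPM in C, so the rise lay mainly in 2 mice. Of 6 ubiquitin precursors and activating enzymes, Rps27a, which encodes ubiquitin fused to a ribosomal protein, fell by 0.54 ± 0.10 (adjusted p = 0.0223 by edgeR). Ubb, a polyubiquitin gene, differed by 0.31 ± 0.14 and was not called.

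Of 11 factors that associate with the proteasome, Ublcp1, a phosphatase of the particle, fell by 0.38 ± 0.10 (adjusted p = 0.0329 by edgeR). Ipo9, a nuclear import factor of the particle, rose by 0.41 ± 0.09 (adjusted p = 0.0229 by edgeR). The shares called over all genes were 4.63% lower and 5.21% higher. Ublcp1 was also called lower in SER against C (-0.47 ± 0.10, adjusted p = 0.0417 by edgeR), where 0.337% of all genes were. None of 5 shuttle receptors, 9 genes of the segregase Vcp and its cofactors, or 7 regulators of proteasome gene transcription was called in SS against C. Nfe2l1, the main transcription factor for proteasome genes, differed by -0.02 ± 0.09. The smallest p in these lists belonged to Mafg (0.40 ± 0.16), Ubqln1 (-0.19 ± 0.08) and Nsfl1c (-0.18 ± 0.09). Of 9 antigen-processing partners of the immunoproteasome, B2m fell by 0.59 ± 0.13 (adjusted p = 0.0244 by edgeR) and the other 8 were not called.

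Subunits that stand in the same complex did not have equal transcript levels. On the scale of CPM per kilobase of transcript, averaged over 12 libraries, beta ring genes had a median of 142, ATPases 89.0, alpha ring genes 77.6 and lid genes 53.4. Psmb4 was the highest at 166 and Psmb7 followed at 148, while Psmb2 stood at 67.2 in the same ring. In the ATPase ring, Psmc5 at 132.5, Psmc1 at 123 and Psmc3 at 118 lay above Psmc4 at 59.9, Psmc2 at 58.6 and Psmc6 at 55.2. Assembly chaperones had a median of 13.5 and the inducible core genes 2.39, with Psmb9 lowest at 1.16. The variation between mice of a group (CV) had a median of 8.80% over the 47 genes and ran from 4.69% for Psmd2 to 24.9% for Psmb9. This spread between mice does not cover errors in transcript length or in the division of reads between transcripts. Differences between genes in this order were not tested, and neighbours in it are not separated.

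**Figure D5:**
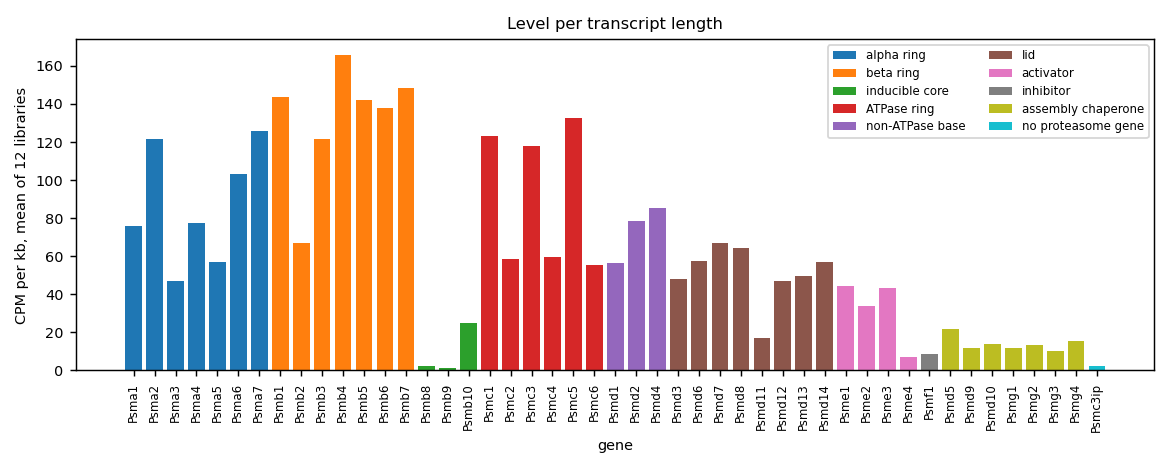
Level per transcript length of each of the 47 genes (bars, CPM per kilobase, mean of 12 libraries), coloured by role. Psmb4, Psmb7, Psmb1, Psmb5 and Psmb6 stand highest (138 to 166), the ATPase ring holds 3 genes at 118 to 132.5 and 3 at 55.2 to 59.9, and Psmb9 stands lowest (1.16), followed by Psmb8 and Psmc3ip.

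Promoters of the genes were examined because many of them leaned the same way. RefSeq windows of 300 bases (250 before and 50 after the start of a transcript, build GRCm38.p6) were used for 40 of the 47 genes, in 43 windows. The others (Psmb1, Psmb2, Psmb7, Psmc3, Psmd3, Psmd7 and Psmg2) were not used here. The core of the site read by ETS factors, CCGGAAG on either strand, was in 16 of the 43 windows (37.2%), against 8.86% of all 32851 windows of that length. It was in 13 of 24 regulatory windows (54.2%) and in 1 of 15 core windows (6.67%). By gene, it was found in 12 of 22 regulatory genes and 1 of 14 core genes, Psma6. Both regulatory counts include Psmc3ip, which is no proteasome gene, and the window count includes both windows of Psmc2. Of the 9 windows of genes called lower in SS than in C, which include both windows of Psma6, 3 held the site (33.3%).

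The following stretches show the match (capitals) with its flanks before the transcript start of that window, on the gene's strand, for regulatory genes of each kind and for Psma6. CTTCCGG is the same site on the opposite strand.
Psmc6 (ATPase, lower in SS), chr14:45329704-45329750, + strand: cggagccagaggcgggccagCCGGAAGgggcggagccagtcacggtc
Psmd4 (base), chr3:95042713-95042759, - strand: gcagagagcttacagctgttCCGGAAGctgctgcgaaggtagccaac
Psmd6 (lid), chr14:14120964-14121010, - strand: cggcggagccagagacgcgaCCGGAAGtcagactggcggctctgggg
Psmd11 (lid), chr11:80428584-80428614, + strand: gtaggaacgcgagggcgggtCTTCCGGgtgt
Psme4 (activator), chr11:30771702-30771748, + strand: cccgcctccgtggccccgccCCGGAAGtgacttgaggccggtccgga
Psma6 (alpha ring, lower in SS), chr12:55398673-55398719, + strand: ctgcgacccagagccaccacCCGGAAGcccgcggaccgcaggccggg

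The match lay 45 to 39 bases before the transcript start in Psmd6 and 100 to 94 bases before it in Psmc6. The Psma6 window belongs to a transcript that starts 14603 bases inside the gene's span, and the window at the gene's outer start held no match. Genes with the match differed from C in both directions: Psmc6 was called lower, and Psme4 had the largest positive difference in SS. The antioxidant response core TGACNNNGC, the element read by Nfe2l1 and Nfe2l2, was in 14% of the 43 windows and in 12.4% of all windows. Each motif was counted whether or not it overlapped another. In the 9 windows of genes called lower it was in 2 (22.2%). It is shown for Psmb6, whose match ends at the base before the start of the window's transcript, which lies 33 bases inside the gene's span.
Psmb6 (caspase-like site), chr11:70525328-70525356, + strand: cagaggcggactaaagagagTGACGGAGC

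The CCAAT box, searched as CCAAT on either strand, was in 14 of the 43 windows (32.6%), against 37.4% of all windows. It was in 7 of 15 core windows (46.7%) and 7 of 24 regulatory windows (29.2%). It was in 6 of the 9 windows of genes called lower (66.7%), which were chosen by the call in these same data. These 9 include both windows of Psma6 and none of Psmb1 or Psmb7. A match describes letters in a window and shows no binding. The promoter shares were compared without a test.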

How the data were processed

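The authors deposited whole-number estimated counts per RefSeq transcript, 1 table per mouse, not normalized. TopHat and mm10 are named per the submitters' processing notes. The sources used here name no counting program, strand option or annotation release. Reads of pseudogene copies (of Psma5, Psmb5, Psmb6 and Psmb7, for example), of overlapping genes and of isoforms can therefore be divided uncertainly. Libraries were prepared with a directional kit from total RNA, per the labels' protocols.

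Counts were summed per symbol; being whole, they needed no rounding. After filterByExpr (minimum count 10) 14541 genes remained, all 47 proteasome symbols among them. TMM factors were 0.970 to 1.039. One edgeR 4.0.16 quasi-likelihood fit (R 4.3.3) of 12 libraries had 8 residual degrees of freedom and a biological coefficient of variation of 15.7%. P-values were adjusted by Benjamini-Hochberg over all genes tested, at 0.05; SE values derive from the F statistic. All tests were two-sided. Simulated counts, drawn independently for each gene and mouse, had 200 genes changed in SS, and 14420 genes passed the filter. In SS against C, 11% of changes of 0.5 and 70% of changes of 1 (log2) were recovered, with 4 false calls. The measured data had 1430 genes called, so these rates need not carry over to them. Alternatives were DESeq2 1.42.0 size factors and Wald test, limma 3.58.1 voom, no filter, 2-group fits, the top transcript row, each mouse left out, C mouse 2 and SS mouse 18 left out, a nuclear-retained RNA covariate, and an offset for length and GC. Transcript lengths came from GENCODE M21, within RefSeq gene ends.

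Members and lists were chosen with earlier results of these data known. Genes were named by role and by call: called genes, proteolytic, inducible, activator, inhibitor and chaperone genes always, and the gene of smallest p in each role. P-values set the difference between groups against the spread between mice, which the main fit estimated from all 12 libraries. Nothing in the labels describes pooling.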

Additional observations from a re-analysis of the deposited data

How the results depend on the processing

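In SS against C the count of proteasome genes called was 10 (21.3%), with 1430 called over all genes (9.83%). It was 0 with only the 2 groups in the fit (0 over all genes). With the nuclear-retained RNA covariate, or with the length and GC offset, it was also 0 (0 over all genes). It was 4 with the top transcript row (8.51%, against 587 or 4.05% over all genes). Without C mouse 2 and SS mouse 18 it was 22 (46.8%, against 3644 or 24.8% over all genes). Leaving out each mouse gave 0 to 23 (0 to 3797 over all genes), at most 48.9% of the 47 against 25.7%. The core median minus the regulatory median was -0.05 with the offset and -0.20 to -0.12 with each mouse left out. In SES against SS the count was 5 without C mouse 2 and SS mouse 18 (10.6%, against 1430 or 9.71% over all genes). It was 0 to 5 with each mouse left out, at most 10.6% against 8.69%. The median difference (0.07) was 0.02 with the offset and 0.05 to 0.11 with each mouse left out. In SER against SS the count was 4 without both mice (8.51%, below the 2573 or 17.5% over all genes). It was 0 to 5 with each left out, at most 10.6% against 16.5%. The difference (0.09) was 0.04 with the offset and 0.02 to 0.12 with each left out. In SES against SER the count was 0 in each of these fits, and the difference (-0.04) was -0.06 to 0.01. In SES against C the count was 1 with DESeq2 (2.13%, against 412 or 2.83% over all genes). It was 2 without both mice (4.26%, against 929 or 6.31%) and 0 with each left out. The difference (-0.13) was -0.01 with the offset and -0.17 to -0.03 with each left out. In SER against C the count was 6 with DESeq2 (12.8%, against 784 or 5.39% over all genes). It was 2 with 2 groups in the fit (4.26%, against 281 or 1.99%) and 7 without both mice (14.9%, against 796 or 5.41%). With the covariate it was 2 (4.26%, against 443 or 3.05%). With each left out it was 0 to 1, at most 2.13% against 1.17%. The difference (-0.08) was -0.02 with the offset and -0.11 to -0.06 with each left out. Fits that leave out mice have fewer samples; the cause of the other shifts was not tested.

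No called gene turned its sign under any alternative. No paired analysis was made because the labels describe no pairing of mice between groups. Depth limits Psmb8, Psmb9 and Psmc3ip, with SE of 0.27 to 0.38 on the log2 scale.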
